A study of Saccharomyces cerevisiae with 16 samples.

Results

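The 5′-phosphorylated (5′P) RNA ends around the stop codons of 4 yeast transcripts are described here: the plasmid-borne mCherry reporter and the chromosomal genes PGK1, RPS3 and TSA1. The members are all 349 listed positions of each transcript, the last of them at 49 past the stop codon, in libraries with 1000 or more reads in the gene table. These are 1396 of the 2396 positions for which the series lists 5′P or 3′ ends. All cells were BY4741, a laboratory strain of budding yeast. They were kept at 30 °C for 4 h in SC-Ura medium and reached an OD600 of 0.7. The reporter, a red fluorescent protein behind the RPS3 promoter, was on a low copy plasmid.

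The modified terminators modNNN, modNTN, modNAA, modNGG, modHNH and modHTH each had 3 insertion sites of 9 bp and are named by the insert at each site. They were set against the RPS3 terminator without inserts (WT). POT1-ccdB is a plasmid that lacks the reporter. N stands for a random insert, and G is not spelled out in the labels. The motifs of the other 3 inserts are shown because they are the designed difference between the constructs. They run 5′ to 3′, and the capitals mark the whole motif. Motif A has 6 nt, and the rest of its 9 bp site is not shown.

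A: ATATTC

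H: TTTCATTTC

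T: TGTACAATA

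Each of the 8 groups had 2 libraries. Of these 16 libraries 13 were usable, with 1070844 to 2939907 reads, and 11 of the 13 carried the reporter. One library each of modNGG, modHNH and modHTH was near-empty, which leaves these groups with 1 library. The labels do not tell whether the libraries of a group are separate cultures. A p-value therefore covers the spread between these libraries, and that spread may be technical.

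In yeast, an mRNA that has lost its cap is degraded from its 5′ end by the exonuclease Xrn1, which runs behind the last translating ribosome. The fragment that remains begins with a 5′ phosphate at the rear edge of that ribosome, so 5′P ends can follow the reading frame in steps of 1 codon. A ribosome waiting on the stop codon is known to leave an end at -17. The deposited tables do not say which base of the stop codon is position 0, and the first base is assumed below. PGK1 encodes the glycolytic enzyme phosphoglycerate kinase, RPS3 a component of the small subunit of the ribosome and TSA1 the main cytosolic peroxiredoxin. By the RefSeq table of assembly R64, PGK1 lies on chromosome III from 137746 to 138996. RPS3 lies on chromosome XIV from 302680 to 303402, and TSA1 on chromosome XIII from 220138 to 220728.

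The window held 1632 to 11574 ends per library for the reporter, 1699 to 5027 for PGK1, 1716 to 4559 for RPS3 and 1544 to 5494 for TSA1. For libraries of one group, Spearman's rho over the 349 positions was 0.797 to 0.926 for the reporter (4 pairs), 0.793 to 0.874 for PGK1, 0.875 to 0.919 for RPS3 and 0.842 to 0.888 for TSA1 (5 pairs each). For libraries of different groups it was 0.708 to 0.918 for the reporter, 0.687 to 0.922 for PGK1, 0.847 to 0.936 for RPS3 and 0.777 to 0.897 for TSA1. The ranges within and between groups overlapped in each transcript. These correlations are a description, since the points share their transcript and the ceiling described next.

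The counts had an upper limit that differed by transcript and library. The highest reporter count was 33 to 85 in modified libraries, against 85 and 80 in WT. It was shared by 5 positions in modHTH, by 42 in modNGG and by 33 in each WT library. Positions at this ceiling held 10.1% to 30.8% of reporter ends, 4.71% to 25.6% of PGK1 ends, 6.52% to 19.2% of RPS3 ends and 3.05% to 11.2% of TSA1 ends. The ceiling was higher where more ends were listed, with a Spearman's rho of 0.961 over the 11 reporter libraries. It was not a fixed multiple of the mean count: in the reporter it was 2.56 times the mean per position in modNGG and 7.06 times in modHTH. The origin of the ceiling is unknown here, and a share at such a position may understate the ends made there.

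Each of the leading positions, those with the highest mean share, was at the ceiling in at least 4 libraries. This limits how far their order can be read. In the reporter, 52 positions reached it in at least 1 library and 5 reached it in all 11. These 5 were -268, -267, -228, -187 and -124, and none of them lies in the frame of -17. In PGK1 the leading positions were -259 and -110, at the ceiling in 13 of 13 libraries, and then -134, -89 and -180 in 12, 11 and 8. In RPS3 they were -150 and -131 in 13 of 13 libraries and -152, -130 and -288 in 12 each. In TSA1 only -288 was at the ceiling in 13 libraries, and -95, -73, -74 and -75 were so in 10, 9, 7 and 4.

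**Figure D1:**
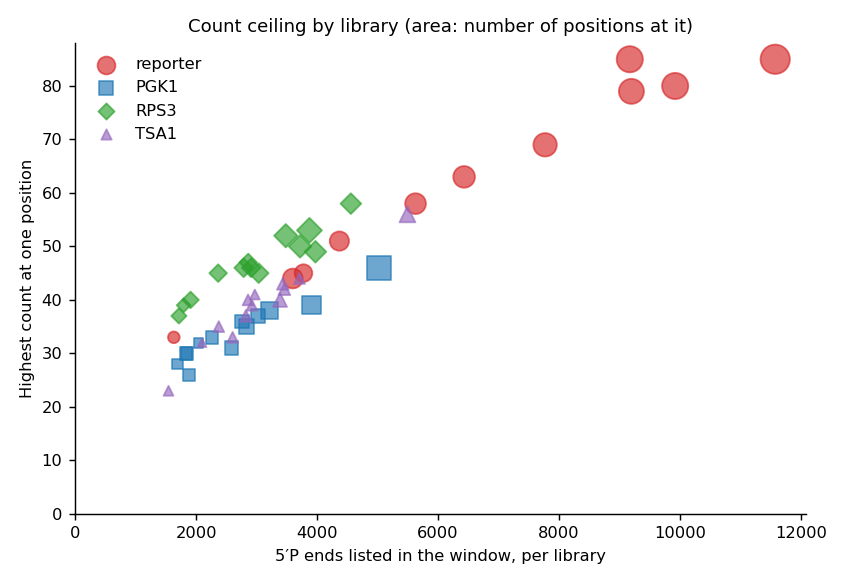
Highest 5′P end count at one position (vertical axis) against the number of 5′P ends listed in the window (horizontal axis), 1 point per library and transcript; the area of a point grows with the number of positions that share the highest count. The ceiling runs from 23 in a TSA1 library to 85 in reporter libraries.

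Along the transcripts, the reporter and TSA1 kept many ends close to the stop codon, and RPS3 kept few. The last 99 nt before the stop codon held 18.8% ± 4.8 of reporter ends (SD, n = 11). They held 13.8% ± 2.7 of PGK1 ends, 4.79% ± 1.26 of RPS3 ends and 22.9% ± 3.2 of TSA1 ends (SD, n = 13 each). The modified libraries ran from 14.8% in modHTH to 27.1% in modNGG for the reporter, against 9.64% and 18.6% in WT. The first WT library was thus the lowest, and the second lay inside the modified range.

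Reverse transcription was primed on the poly(A) tail, so the distance to the 3′ end was set beside these shares. The leading 3′ end of the reporter lay at 55 in modHNH and at 75 or 76 in the other modified libraries, against 59 in WT. In all usable libraries it lay at 158 in PGK1, at 59 in RPS3 and at 106 in TSA1. From the position by which 95% of 5′P ends had been counted, the distance to the leading 3′ end was 115 ± 9 nt in the reporter (SD, n = 11). It was 208 ± 24 nt in PGK1, 160 ± 11 nt in RPS3 and 166 ± 10 nt in TSA1 (SD, n = 13 each). The listed positions stop at 49, so ends farther on are not counted, and this uncounted stretch is longest in PGK1. As measured, the 4 transcripts did not share 1 such distance. Whether they would do so with all ends up to the 3′ end cannot be told from this window. In the 2 WT libraries, where the leading 3′ end is the same, it was 134 and 106 nt for the reporter, against 169 and 146 nt for native RPS3. No test was made of these distances.

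**Figure D2:**
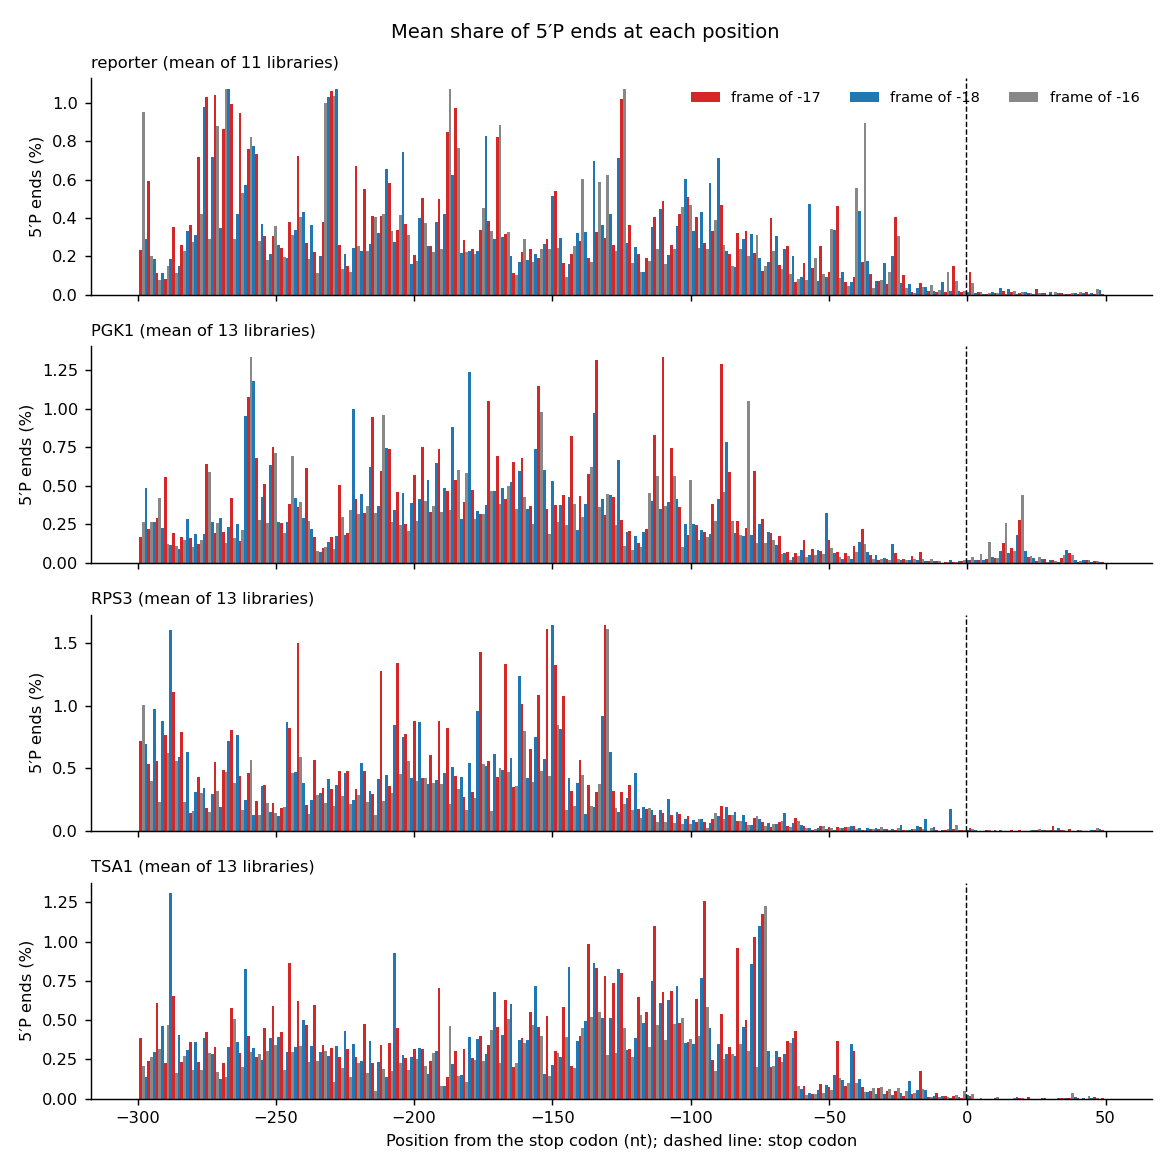
Mean share of 5′P ends (percent, vertical axis) at each position from the stop codon (nt, horizontal axis), averaged over 11 libraries for the reporter and 13 for PGK1, RPS3 and TSA1, with bars coloured by frame. RPS3 ends become sparse well before the stop codon, with 4.79% in the last 99 nt, and PGK1 has a further group of ends past it.

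To measure the 3-nt periodicity, the ends up to -21 were divided into 3 frames. With all positions counted, all 4 transcripts had more ends in the frame of -17 than an even spread gives, and the reporter had the smallest mean excess. With the positions at the ceiling in any library left out of all of them, only TSA1 kept an excess that passed. That frame held 35.9% ± 0.8 of reporter ends (SD, n = 11). It held 38.7% ± 1.6 of PGK1 ends, 41.0% ± 0.9 of RPS3 ends and 39.8% ± 1.2 of TSA1 ends (SD, n = 13 each), and an even spread gives 33.3%.

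Over the 11 libraries the reporter's share had its lowest value at 34.9% in the second modNNN library, its median at 35.8% and its highest value at 38.0% in the first modNAA library. The WT libraries, at 36.2% and 35.3%, lay inside the range of the modified ones. The reporter was above an even spread in 11 of 11 libraries, by 2.60 percentage points (two-sided exact sign-flip permutation test over libraries, adjusted p = 0.00098 over 4 transcripts). PGK1 was above it by 5.36 points, RPS3 by 7.63 points and TSA1 by 6.43 points, in 13 of 13 libraries each (exact adjusted p = 0.00033 each). The unadjusted p-values behind these are the smallest that 11 and 13 libraries can give. The same sequences recur in each library, so the test speaks of these transcripts alone.

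How far this excess rests on the positions at the ceiling was measured in 2 ways. When each library lost its own ceiling positions, the frame of -17 held 35.8% ± 1.8 of reporter ends (SD, n = 11), 36.6% ± 2.2 of PGK1 ends, 38.3% ± 3.1 of RPS3 ends and 39.0% ± 0.9 of TSA1 ends (SD, n = 13 each), and each excess still passed. RPS3 was then above an even spread in 11 of 13 libraries, with 32.4% and 33.3% in the 2 WT libraries, which had lost 9 and 10 positions of that frame. When the positions at the ceiling in any library were left out of all libraries, a setting added after seeing the data, the frame held 33.7% ± 1.3 of reporter ends (SD, n = 11; above an even spread in 6 of 11). It then held 34.1% ± 2.2 of PGK1 ends (9 of 13), 33.4% ± 1.8 of RPS3 ends (6 of 13) and 36.6% ± 1.3 of TSA1 ends (13 of 13; SD, n = 13 each). TSA1 alone passed in that setting (exact sign-flip permutation test, adjusted p = 0.00098), and the adjusted p was 0.66 for the reporter, 0.51 for PGK1 and 0.87 for RPS3. Leaving out the highest positions lowers the frame that holds most of them, so these shares are not free of the choice either.

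The least used frame was that of -16 in the mean of each transcript. It held 31.3% ± 0.7 of reporter ends (SD, n = 11), against 28.0% ± 1.6 of PGK1 ends, 23.9% ± 1.1 of RPS3 ends and 25.2% ± 1.2 of TSA1 ends (SD, n = 13 each). The frame of -18 lay between, at 32.7% in the reporter, 33.4% in PGK1 and 35.1% in RPS3 and in TSA1. The frame of -16 was thus farther below an even spread in RPS3 and TSA1 than in PGK1 and the reporter. The shares of these 2 frames were taken with all positions, those at the ceiling included.

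In a Fourier transform of the counts, the rank of the 3-nt period among 113 periods between 2 and 10 nt ran from 5 to 65 in the reporter and from 1 to 8 in PGK1. It was 1 in 13 of 13 libraries of RPS3 and of TSA1. Its power over the mean of the other periods was 1.64 ± 0.83 in the reporter (SD, n = 11). It was 6.77 ± 4.36 in PGK1, 13.3 ± 4.5 in RPS3 and 15.2 ± 4.9 in TSA1 (SD, n = 13 each). The 3-nt period was thus not the strongest period of the reporter in any library.

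The frame was also read triplet by triplet, on ends summed over libraries, so that single high positions weigh less. The frame of -17 led in 42 of 93 triplets of the reporter, against 49 in PGK1, 43 in RPS3 and 46 in TSA1. The frame of -16 led in 16 triplets of the reporter, against 10, 10 and 8. By the first of these counts the reporter and RPS3 were 1 triplet apart.

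The frame share differed along the window. In the reporter, the frame of -17 held 38.7% ± 0.6 of ends in the 93 nt farthest from the stop codon and 33.8% ± 1.4 in the 93 nt that end at -21 (SD, n = 11 each). In PGK1 the far stretch had 35.9% ± 2.5 and the near one 44.8% ± 3.0 (SD, n = 13 each). In TSA1 the values were 38.9% ± 1.3 in the far stretch and 42.0% ± 1.6 in the near one (SD, n = 13 each). The near stretch was thus close to an even spread in the reporter, and it had the higher mean in PGK1 and TSA1. RPS3 had 39.6% ± 1.2 in the far stretch, 42.8% ± 1.2 in the middle one and 35.0% ± 4.3 in the near one, where its ends are few (SD, n = 13 each). These differences along a transcript were not tested. They were taken with all positions, those at the ceiling included, and the part of the ceiling in them was not tested either.

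**Figure D3:**
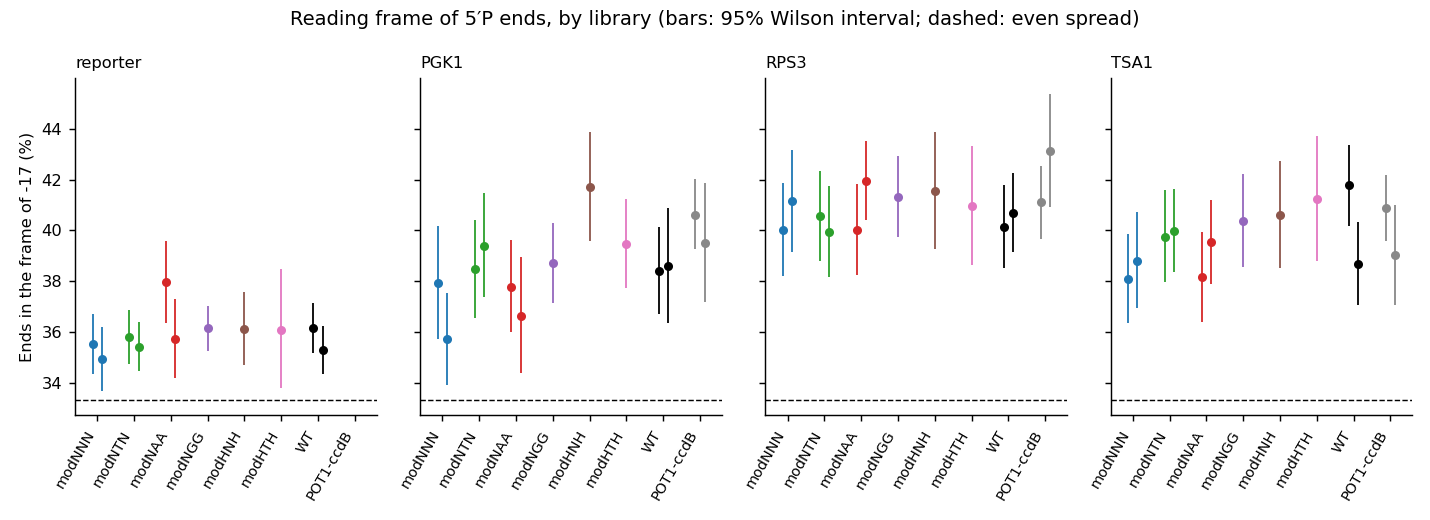
Share of 5′P ends in the frame of -17 (percent, vertical axis, which does not start at 0) over positions up to -21, 1 point per library by group, with 95% Wilson intervals that cover counting error only; the dashed line marks an even spread. The reporter panel has no POT1-ccdB points because that plasmid has no reporter. Reporter points lie at or below 38.0%, and RPS3 points at or above 40.0%.

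Within libraries, the reporter's frame share minus that of RPS3 was -4.82 ± 1.15 points, and minus that of TSA1 it was -3.80 ± 1.44 points (SD, n = 11 each). Both were negative in 11 of 11 libraries (exact sign-flip permutation test, adjusted p = 0.0029 each over 9 tests). Minus that of PGK1 it was -2.51 ± 1.60 points (SD, n = 11), negative in 10 of 11 libraries (exact adjusted p = 0.0044). When each library lost its own ceiling positions, the difference was -1.97 ± 1.87 points from RPS3 (exact adjusted p = 0.022) and -3.40 ± 1.83 points from TSA1 (exact adjusted p = 0.0059). The difference from RPS3 was then negative in 9 of 11 libraries. The difference from PGK1 was -0.70 ± 2.62 points and did not pass (SD, n = 11 each; exact adjusted p = 0.42). When the same positions were left out of all libraries, only the difference from TSA1 passed (-2.94 points, exact adjusted p = 0.0088), and that from RPS3 turned to 0.62 points (exact adjusted p = 0.39). Of the positions at the ceiling in any library, 21 of 52 lie in the frame of -17 in the reporter, against 15 of 31 in PGK1, 11 of 16 in RPS3 and 9 of 16 in TSA1.

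No difference in frame share between the 7 reporter constructs passed. For the reporter, modified libraries averaged 36.0% ± 0.8 (SD, n = 9) and WT libraries 35.7% ± 0.6 (SD, n = 2). The difference of 0.24 points did not pass (two-sided exact permutation test, p = 0.65, adjusted p = 0.87 over 12 tests). The permutation test of the F ratio over the 7 groups gave an adjusted p of 0.78 over 12 tests. With 2 WT libraries the exact test cannot give a p under 0.018, and a p that misses the threshold does not show that the constructs are alike. In RPS3 the frame share was 40.0% to 42.0% in the 9 modified libraries, against 40.1% and 40.7% in WT. When each library lost its own ceiling positions it was 37.4% to 42.5% in the modified libraries, against 32.4% and 33.3% in WT, a difference of 5.99 points (exact permutation test, p = 0.018, adjusted p = 0.11). When the same positions were left out of all libraries the difference was 1.57 points (exact adjusted p = 0.65).

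At -17, the position of a ribosome on the stop codon, no transcript had an excess over its coding stretch as a whole. Ends at -17 were set against the mean of the positions of the same frame up to -21, as a log2 ratio with 0.5 added to both counts. This ratio was -2.90 ± 1.27 for the reporter (SD, n = 11; exact sign-flip permutation test, adjusted p = 0.00098 over 4 transcripts). It was -2.40 ± 0.83 for PGK1, -3.50 ± 0.97 for RPS3 and -1.35 ± 0.73 for TSA1 (SD, n = 13 each; exact adjusted p = 0.00033 each). It was below 0 in every usable library of the 4 transcripts, and the ends in general were sparser near the stop codon. The test takes in this general fall, so its p-values cannot tell whether -17 differs from the positions around it.

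Against the 8 nearest positions of the same frame, from -29 to -5, the transcripts differed. This local ratio was chosen after the values had been seen. TSA1 had 69 ends at -17 over 13 libraries, against a mean of 12 at the nearest positions. Its counts at -17 were 1 and 2 in modNNN, 6 and 5 in modNTN, 4 and 14 in modNAA, 5 in modNGG, 3 each in modHNH and modHTH, 7 and 6 in WT, and 7 and 6 in POT1-ccdB. Every library had an end there, modified and WT libraries overlapped, and no other TSA1 position from -29 to -5 had as many ends in sum. The local ratio of TSA1 was 1.95 ± 0.57 (SD, n = 13), above 0 in 13 of 13 libraries (exact sign-flip permutation test, adjusted p = 0.00098 over 4 transcripts).

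PGK1 had 26 ends at -17, in 12 of 13 libraries, against a mean of 8.38 at the nearest positions. Its local ratio was 0.94 ± 0.78 (SD, n = 13; exact adjusted p = 0.0044). The highest PGK1 position from -29 to -5 was -27, outside that frame, with 44 ends in 12 libraries. The positions -26 and -20, inside it, had 22 and 18. RPS3 had 15 ends at -17, in 7 of 13 libraries, against a mean of 3.25 at the nearest positions. Its local ratio of 0.66 ± 1.19 (SD, n = 13) did not pass (exact adjusted p = 0.073). Per library the mean at the nearest positions was only 0 to 0.5 in RPS3, so the 0.5 added to both counts weighs heavily in its ratio. The local ratio was not computed with another pseudocount. More RPS3 ends lay outside that frame, with 69 at -6 (1 to 11 per library, in 13 of 13) and 41 at -15 (in 10 of 13). These positions of PGK1 and RPS3 other than -17 were picked after their values were seen.

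The reporter had 43 ends at -17, against a mean of 70.4 at the nearest positions. Its counts at -17 were 10 and 7 in modNNN, 7 and 4 in modNTN, 0 and 5 in modNAA, 3 in modNGG, 2 in modHNH and 0 in modHTH. They were 1 and 4 in WT. Modified and WT libraries overlapped. The local ratio was -0.89 ± 1.04 (SD, n = 11; exact adjusted p = 0.018). The highest reporter counts of this stretch were at -26 and -25, with 316 and 241 ends over 11 libraries. Of these, -26 is among the nearest positions of the frame, and it reached the ceiling of 85 in modNGG. Both were picked after their values were seen. Without -26 the other 7 nearest positions averaged 35.3 reporter ends, below the 43 at -17, and the local ratio was -0.11 and did not pass (exact adjusted p = 0.76). The reporter's deficit at -17 against its neighbours thus rests on that position.

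Within libraries, the reporter's local ratio minus that of TSA1 was -2.75 ± 1.27 (exact sign-flip permutation test, adjusted p = 0.0022 over 9 tests). Minus that of PGK1 it was -1.77 ± 1.08 (exact adjusted p = 0.0029), and minus that of RPS3 it was -1.49 ± 1.81 (SD, n = 11 each; exact adjusted p = 0.024). Without -26 among the nearest positions, the differences from TSA1 (-2.10, exact adjusted p = 0.0022) and PGK1 (-1.21, exact adjusted p = 0.011) still passed, and that from RPS3 did not (-0.66, exact adjusted p = 0.27). With the whole coding stretch as the base, only the difference from TSA1 passed, at -1.52 ± 1.62 (SD, n = 11; exact adjusted p = 0.023). It did not pass with 1 mean value per construct (exact adjusted p = 0.056) or with the positions at the ceiling in any library left out of all (exact adjusted p = 0.054). The other 2 differences, -0.42 from PGK1 and 0.57 from RPS3, had an exact adjusted p of 0.32 each.

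Between constructs, the reporter's ratio at -17 with the whole stretch as the base was -2.69 ± 1.26 in 9 modified libraries and -3.82 ± 1.06 in 2 WT libraries (SD; exact permutation test, adjusted p = 0.82). The difference of 1.13 was 0.38 without the first WT library and 1.88 without the second. Over the 7 groups the permutation test gave an adjusted p of 0.78. These comparisons rest on 0 to 14 ends at -17 per library and transcript, on 2 WT libraries and on 3 constructs with 1 library, and the size of difference they could detect was not tested.

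**Figure D4:**
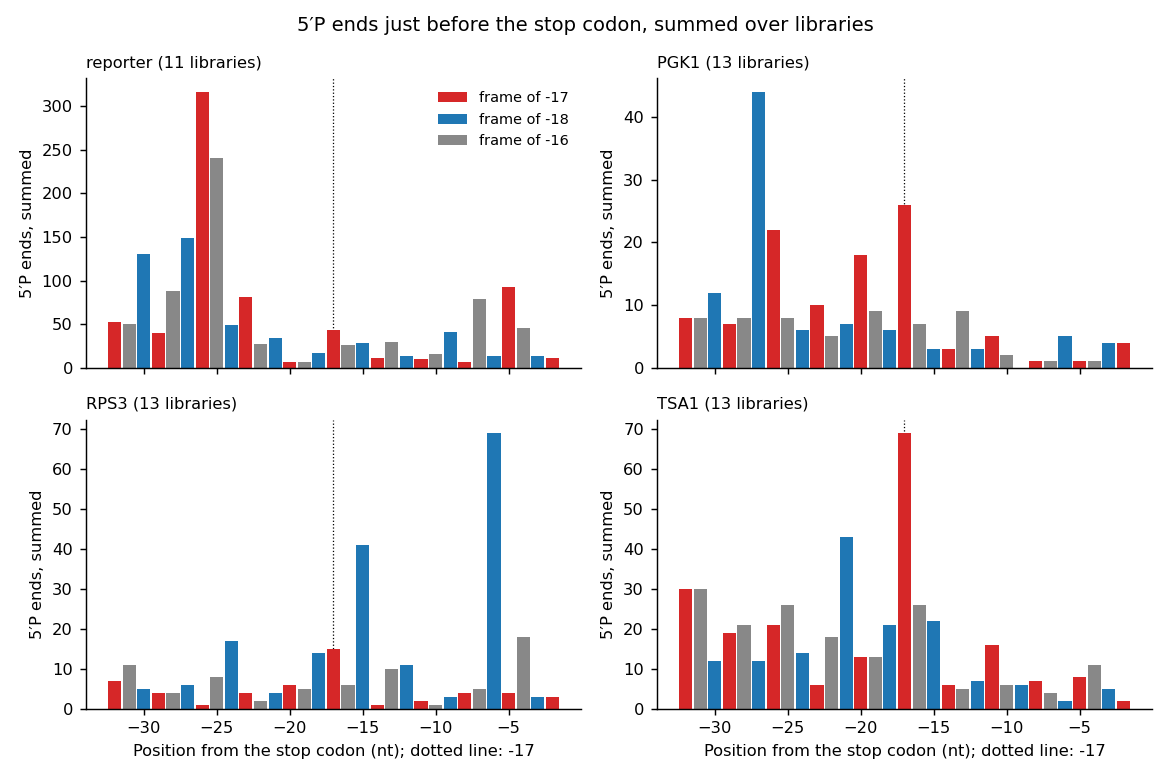
Number of 5′P ends summed over libraries (vertical axis) at positions near the stop codon (nt, horizontal axis), coloured by frame, with a dotted line at -17. TSA1 peaks at -17 with 69 ends, RPS3 at -6 with 69 ends and the reporter at -26 with 316 ends.

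Ends past the stop codon, at positions 3 to 49, mark fragments that hold no coding sequence. Their share was highest in PGK1. It was 0.491% ± 0.266 in the reporter (SD, n = 11), against 2.71% ± 1.55 in PGK1, 0.245% ± 0.122 in RPS3 and 0.179% ± 0.109 in TSA1 (SD, n = 13 each). In sum there were 300 such ends in the reporter, 905 in PGK1, 97 in RPS3 and 65 in TSA1. PGK1 also has the farthest leading 3′ end, at 158, and the part of this distance in its share was not tested.

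Within libraries, the reporter's share minus that of PGK1 was -2.42 ± 1.58 points, negative in 11 of 11 libraries (SD; exact sign-flip permutation test, adjusted p = 0.0029 over 9 tests). Minus that of TSA1 it was 0.30 ± 0.28 points, positive in 10 of 11 (exact adjusted p = 0.0053). Minus that of RPS3 it was 0.22 ± 0.27 points, positive in 9 of 11 (exact adjusted p = 0.036). With 1 mean value per construct, the differences from TSA1 and RPS3 did not pass (exact adjusted p = 0.070 and 0.12). The difference from RPS3 also did not pass without either modNNN library, the first modNTN library, either modNAA library or modHTH (0.19 to 0.22 points, exact adjusted p = 0.060 to 0.073). As a share of the ends from -99 onwards, the reporter minus RPS3 was -2.66 points (exact adjusted p = 0.0029). Only 4.79% of RPS3 ends lie in the last 99 nt of its coding stretch, so the order of the 2 depends on the ends taken as the whole.

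The PGK1 ends past the stop codon were concentrated between 8 and 21, a stretch picked after its values were seen. It held 55.6% to 80.8% of the PGK1 ends past the stop codon in each library, with 29.8% of the positions. The leading positions were 20, 19 and 14, with 142, 93 and 81 ends. Position 20 had 2 to 31 ends per library, in 13 of 13, and it was at the ceiling in 1.

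The PGK1 share past the stop codon varied widely within groups. It was 2.76% and 1.63% in modNNN, 3.17% and 2.69% in modNTN, 2.82% and 6.86% in modNAA, 3.30% in modNGG, 0.736% in modHNH and 1.62% in modHTH. It was 2.20% and 4.21% in WT and 1.85% and 1.41% in POT1-ccdB. The WT libraries lay inside the range of the modified ones, and the test over the 7 groups did not pass (permutation of the F ratio, adjusted p = 0.78).

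In the other transcripts the ends past the stop codon were spread thinly. The leading positions were 12, 25 and 15 in the reporter, 31, 47 and 33 in RPS3 and 38, 44 and 11 in TSA1. No position past the stop codon had more than 23 ends in the reporter, or more than 14 in RPS3 or TSA1, over all libraries. Of the 47 positions, 1 had no end in the reporter, 15 had none in RPS3 and 23 had none in TSA1.

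By construct, the reporter's share past the stop codon was 0.840% and 0.817% in modNNN, 0.347% and 0.283% in modNTN and 0.583% and 0.848% in modNAA. It was 0.156% in modNGG (95% Wilson interval 0.0984% to 0.246%), 0.320% in modHNH (0.191% to 0.537%) and 0.674% in modHTH (0.377% to 1.20%). It was 0.240% and 0.292% in WT. All libraries of modNNN, modNAA, modHNH and modHTH and the first modNTN library lay above both WT libraries, the second modNTN library lay between them and modNGG lay below. The interval of modHNH holds both WT values. The WT reporter shares its terminator with native RPS3, and how reads of the shared sequence were assigned is not known here. The part of such reads in the reporter's shares was not tested.

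Over the 7 groups the permutation test of the F ratio gave p = 0.027 for this share, which did not pass after adjustment over 12 tests (adjusted p = 0.33). It passed with the stop codon's own positions counted in (permutation adjusted p = 0.0072), an alternative added after seeing the data. That alternative takes in the modNAA ends at positions 0 to 2 described below. The test also passed with the ends from -99 onwards as the whole (permutation adjusted p = 0.024) and without the second modNAA library. It did not pass without any other single library or with ceiling positions left out in either way. Over the 4 constructs with 2 libraries it did not pass with or without the replicate block. Modified libraries averaged 0.541% ± 0.269 (SD, n = 9) and WT libraries 0.266% ± 0.037 (SD, n = 2), a difference of 0.27 points that did not pass (two-sided exact permutation test, p = 0.24, adjusted p = 0.82). These shares rest on 11 to 54 ends per library, and positions at the ceiling hold 10.1% to 30.8% of the totals they are taken from. The leading 3′ end also differed, at 59 in WT, 55 in modHNH and 75 or 76 in the other modified libraries. The part of this distance in the reporter's shares was not tested.

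The stop codon's own positions, 0 to 2, held the highest share of reporter ends in modNAA. They held 0.202% and 0.195% in modNNN, 0.0901% and 0.109% in modNTN, 0.639% and 0.477% in modNAA, 0.0605% in modNGG, 0.114% in modHNH and 0.0613% in modHTH. The WT libraries had 0.0872% and 0.101%. Both modNAA libraries, with 23 and 18 such ends, lay above the other 9. This was noticed in the values, and no separate test is given. Of the 113 reporter ends at these positions 66 lay at position 1, which had ends in 11 of 11 libraries. The same positions had 28 ends in PGK1, 14 in RPS3 and 31 in TSA1, and their share was at most 0.141% in the modNAA libraries of these genes.

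The RPS3 share past the stop codon was the one in which modified and WT libraries did not overlap among the genes. It was 0.0988% to 0.327% in the 9 modified libraries (3 to 13 ends), against 0.402% and 0.490% in WT (14 and 19 ends), and POT1-ccdB had 0.110% and 0.105%. The difference of -0.22 points between modified and WT libraries had p = 0.018, the smallest that 55 splits can give, and an adjusted p of 0.22 over 12 tests (two-sided exact permutation test). The WT reporter carries the terminator of native RPS3, and no source used here says how reads of the shared sequence were assigned. The part of such reads in this difference was not tested.

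**Figure D5:**
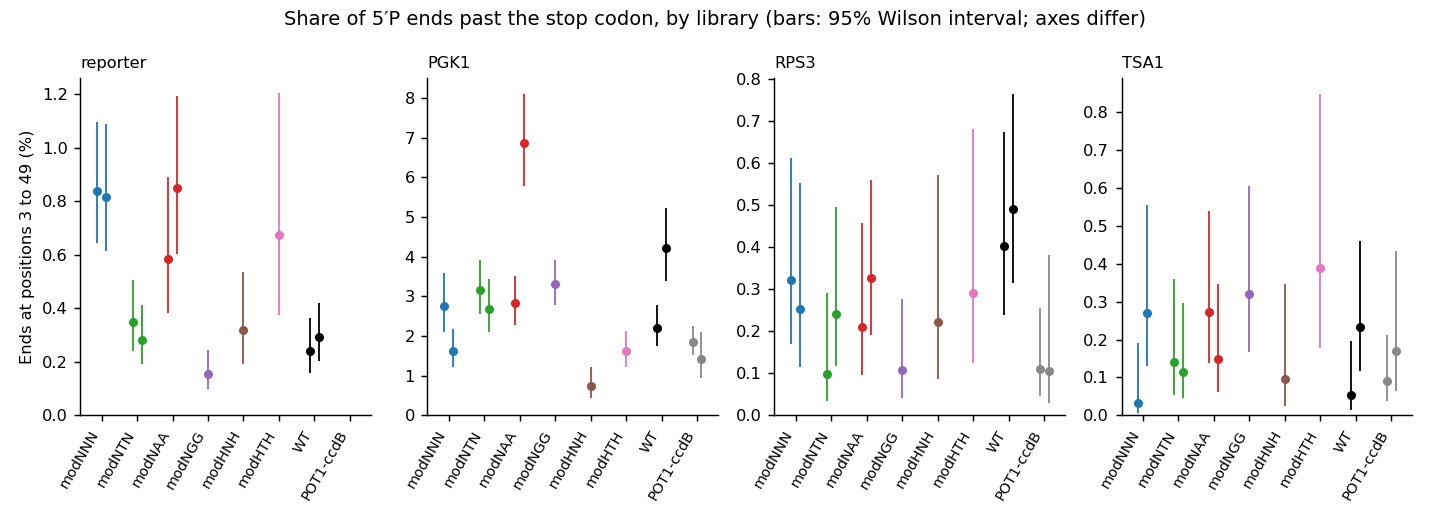
Share of 5′P ends at positions 3 to 49 (percent, vertical axes, which differ between panels) for each library by group, with 95% Wilson intervals that cover counting error only. The reporter panel has no POT1-ccdB points. Reporter shares are 0.840% and 0.817% in modNNN, against 0.240% and 0.292% in WT, and the PGK1 share reaches 6.86% in the second modNAA library.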

How the data were processed

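The deposited tables hold whole-number counts: reads per transcript in the gene table, and 5′P or 3′ ends per position in the others. The labels' protocols name HT-5PSeq, with oligo(dT) as the only primer of reverse transcription. The submitters' processing notes name HISAT2, featureCounts, cutadapt, bedtools, SAMtools, FastQC and MultiQC and the builds sacCer3 and R64 (versions, settings and any collapsing of duplicate reads: not given in the sources used here). Intervals cover counting error only. Genome sequence was not used here.

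The values computed per library and transcript were the frame share up to -21, the log2 ratio at -17 and the share past the stop codon. Tests took libraries as units, in numpy 2.4.6 and scipy 1.17.1: exact sign-flip tests within libraries, permutation of the F ratio over 7 groups (100000 resamples) and exact permutation for modified against WT. Benjamini-Hochberg adjustment ran over 4, 9 or 12 tests, at a threshold of 0.05. Simulated counts without a ceiling, and without spread between libraries beyond counting error, were used to check the frame share test (TSA1). They also checked the 7-group test (TSA1) and the modified against WT test (reporter) of the share past the stop codon. The simulated difference between modified and WT libraries was larger than the observed one. The sign-flip tests of the ratio at -17 and of the differences within libraries were not checked in this way. Members, measures and tests were chosen with earlier results of these data known. The written design did not fix the first position past the stop codon: 3 was taken after the results from both 0 and 3 had been seen. Named positions are -17, the 5 leading positions of each transcript and the 3 leading ones past its stop codon; others are said to be picked. Alternatives left out ceiling positions (of each library, or of any library from all) or single libraries, shortened the window, widened or localised the ratio at -17, changed its pseudocount, averaged by construct and added a replicate block.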

Additional observations from a re-analysis of the deposited data

How the results depend on the processing

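With the positions at the ceiling in any library left out of all libraries, added after seeing the data, the excess in the frame of -17 was 0.34 points in the reporter, 0.76 in PGK1 and 0.0822 in RPS3, and none of these 3 passed; under the other alternatives run, the mean excess of each transcript kept its direction and passed. In that setting reporter minus PGK1 was -0.18 points and no longer passed, reporter minus RPS3 turned to 0.62 points, modified minus WT for PGK1 turned to 0.0893 points, and reporter minus TSA1 at -17 was -1.26 and no longer passed. With each library's own ceiling positions left out, the frame difference reporter minus PGK1 was -0.70 points and no longer passed, reporter minus RPS3 was -1.97 points, modified minus WT for PGK1 turned to 1.28 points, and modified minus WT for RPS3 was 5.99 points, against 0.41 with all positions. With the shorter window, the share past the stop codon turned to -2.66 points for reporter minus RPS3 and to 0.58 points for modified minus WT in PGK1, and the 7-group test of the reporter passed (permutation adjusted p = 0.024). That test also passed with positions 0 to 2 counted (permutation adjusted p = 0.0072), an alternative added after seeing the data. With -18 to -16 as the stop peak, reporter minus PGK1 was 0.14 on the log2 scale. Against the nearest positions, also added after seeing the data, the log2 ratio at -17 turned to 0.94 in PGK1, 0.66 in RPS3 and 1.95 in TSA1. Reporter minus PGK1 was then -1.77 and passed, reporter minus RPS3 turned to -1.49, and modified minus WT in PGK1 turned to 0.50. Without -26 among them, the ratio was -0.11 in the reporter, which no longer passed, 1.13 in PGK1, 0.62 in RPS3 and 2.07 in TSA1. Reporter minus PGK1 was then -1.21 and passed, reporter minus RPS3 was -0.66, and modified minus WT in PGK1 was 0.18. With 1 mean value per construct, 3 differences no longer passed: reporter minus TSA1 at -17 (-1.66), and reporter minus RPS3 (0.21 points) and minus TSA1 (0.26 points) past the stop codon.

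Replicate numbers did not pair the libraries: 1 of 10 correlations between same-numbered deviations was above 0.1 (-0.116 to 0.211). The replicate block could be fitted to the 4 reporter constructs with 2 libraries. There, modified minus WT past the stop codon in PGK1 turned to 0.11 points, the 4-group test of the reporter past the stop codon had a permutation adjusted p of 0.50 (0.51 on the same libraries without the block), and no test passed.

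Leaving out 1 library at a time, reporter minus PGK1 at -17 ranged from -0.74 (without the first modNNN library, where it passed) to -0.27, and reporter minus RPS3 past the stop codon from 0.19 to 0.26 points. The adjusted p of the 7-group test of the reporter past the stop codon ranged from 0.038 to 0.70 (permutation). Modified minus WT ranged as follows and never passed: frame share from -0.20 to 0.67 points in the reporter, from -0.48 to 0.27 points in PGK1 and from -2.15 to 0.95 points in TSA1. At -17 it ranged from 0.38 to 1.88 in the reporter, from -0.85 to 0.67 in PGK1 and from -1.88 to -0.13 in RPS3, with each end set by leaving out a WT library. Past the stop codon it ranged from -1.37 to 0.64 points in PGK1 and from -0.035 to 0.14 points in TSA1. The cause of these changes was not tested, and 2 WT libraries and few ends per library limit the comparisons between constructs.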
